A study of Homo sapiens with 4 samples.

Results

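Open chromatin around 8 surface marker genes was examined in ME-1 cells, an established human acute myeloid leukaemia line that carries inv(16). The genes were CD34, CD33, CD2, CD4, ITGAM, CD14, ANPEP and CD38. Members were ATAC-seq peaks with a midpoint within 50 kb of an approximate start of each gene in hg19, given to the nearest 1 kb. The rule uses position and no measured value, while the 8 genes were picked with earlier results of these data known. These peaks numbered 65 of 67388 and 53 of 65132 in DMSO replicates 1 and 2, and 47 of 48930 and 48 of 53438 in AI-10-49 replicates 1 and 2. Merging peaks that overlapped by at least 1 bp gave 84 regions of 103230 in the genome. By gene and library, the outermost peak inside the 50 kb limit, of both sides together, lay 6.68 to 48.26 kb from the position, and the nearest one outside it 51.9 to 99.48 kb away. The control cells received the solvent DMSO and the treated cells 1 µM AI-10-49, which blocks the binding of the fusion protein CBFβ-SMMHC to RUNX1. All cells were harvested at 6 h, and the design text speaks of independent experiments, with 2 libraries per group. All libraries carry the inv(16) fusion and come from a single cell line, so no cell without the fusion is compared.

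The products of these genes are read by flow cytometry to type leukaemias. CD34 marks stem and progenitor cells, and its product is a sialomucin. CD33 encodes a sialic acid binding receptor of myeloid cells, ANPEP the aminopeptidase CD13, ITGAM the integrin chain CD11b, and CD14 the co-receptor for bacterial lipopolysaccharide on monocytes. CD2 and CD4 are best known from T cells, and blasts with inv(16) can carry CD2, while CD4 is also found on monocytes. CD38 encodes an enzyme that consumes NAD and is found on progenitors and activated lymphocytes. RUNX1 with its partner CBFβ controls many genes of blood cells, and ETS and C/EBP factors are known regulators of myeloid promoters. Open promoters and enhancers let Tn5 insert adapters, so a peak marks DNA that is not packed in nucleosomes.

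The 250 bases before the annotated start are shown for the 3 genes with a promoter site in every library and for CD14, CD34 and CD2, whose promoter sites were listed in some libraries. They are RefSeq sequences of build GRCh38.p14, in the direction of the gene, and capitals mark matches to the ETS or C/EBP motif on either strand. Their coordinates are not those of the peaks, which are on hg19.
ITGAM, chr16:31259725-31259974, plus strand: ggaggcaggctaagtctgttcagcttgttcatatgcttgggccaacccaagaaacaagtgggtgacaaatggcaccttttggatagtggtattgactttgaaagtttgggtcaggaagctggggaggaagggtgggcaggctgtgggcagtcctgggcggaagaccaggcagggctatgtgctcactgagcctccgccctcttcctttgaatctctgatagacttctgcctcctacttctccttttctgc
CD33, chr19:51224830-51225079, plus strand: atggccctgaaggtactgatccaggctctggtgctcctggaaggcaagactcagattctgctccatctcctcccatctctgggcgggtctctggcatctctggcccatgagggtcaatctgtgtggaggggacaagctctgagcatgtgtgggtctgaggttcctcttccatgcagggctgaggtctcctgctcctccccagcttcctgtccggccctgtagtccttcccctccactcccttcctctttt
ANPEP, upstream start, chr15:89814853-89815102, minus strand: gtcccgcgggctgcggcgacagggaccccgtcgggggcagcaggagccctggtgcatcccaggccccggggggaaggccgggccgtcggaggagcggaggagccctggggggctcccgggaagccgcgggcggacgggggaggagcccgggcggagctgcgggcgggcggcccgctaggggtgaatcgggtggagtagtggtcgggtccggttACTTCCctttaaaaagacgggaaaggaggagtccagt
CD14, chr5:140633176-140633425, minus strand: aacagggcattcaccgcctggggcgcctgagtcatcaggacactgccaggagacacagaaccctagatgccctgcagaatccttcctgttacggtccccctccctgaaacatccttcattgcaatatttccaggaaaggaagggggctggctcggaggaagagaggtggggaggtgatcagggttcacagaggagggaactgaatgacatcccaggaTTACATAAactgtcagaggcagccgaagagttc
CD34, chr1:207911126-207911375, minus strand: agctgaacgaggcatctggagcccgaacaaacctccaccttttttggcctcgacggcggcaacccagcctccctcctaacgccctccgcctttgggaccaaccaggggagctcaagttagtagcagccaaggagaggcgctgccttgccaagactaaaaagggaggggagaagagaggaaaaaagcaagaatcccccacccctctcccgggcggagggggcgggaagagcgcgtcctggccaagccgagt
CD2, chr1:116754180-116754429, plus strand: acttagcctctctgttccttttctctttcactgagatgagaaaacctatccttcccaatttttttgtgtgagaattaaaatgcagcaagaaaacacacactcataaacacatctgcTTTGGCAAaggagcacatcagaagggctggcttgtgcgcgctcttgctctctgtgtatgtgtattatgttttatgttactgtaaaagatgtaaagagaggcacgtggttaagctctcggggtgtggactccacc
The table of promoters held 7 of the 8 genes, with 2 starts for ANPEP. The motif of RUNX factors, TGTGGT, was found in 0 of the 7 genes' stretches, and 11% of all 35116 promoter stretches of this length hold it. The ETS motif GGAAGT had a match in ANPEP alone, ending 31 bases before the upstream start, and 19.5% of all promoters hold it. The C/EBP motif TTNCNNAA matched in CD14, ending 25 bases before the start, and in CD2, ending 126 bases before it, against 33.2% of all promoters. The SP/KLF motif GGGCGG was found in 4 genes, ANPEP, CD33, CD34 and ITGAM, against 42.6% of all promoters. CD14 held the AP-1 motif TGANTCA, which 6.6% of promoters hold, and the MYB motif AACTG, which 34.1% hold. CCAAT was present in CD2 and CD38, against 32.0%. The GATA motif AGATAA was found in none of the 7 genes, against 9.2% of all promoters. The TATA box, searched as TATAAA, was found in none of them either, against 10.7%. Both strands were searched, 1 MYB match of CD14 shares a base with its C/EBP match, and 2 SP/KLF matches of ANPEP overlap each other. The stretches range from 42.8% G and C in CD2 to 74.0% at the upstream start of ANPEP, with a median of 58.0% over all promoters. A match of letters is a description of the sequence and not a bound site.

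Promoters of 3 myeloid genes, CD33, ITGAM and ANPEP, held a site that was listed in every library, and those of CD2 and CD4 were nearly without peaks. A promoter peak here is one with a midpoint within 2 kb of the position used. All 8 genes had one in DMSO replicate 1, 6 in DMSO replicate 2, 5 in AI-10-49 replicate 1 and 6 in AI-10-49 replicate 2. CD14 also had a promoter peak in each of the 4 libraries, but at 2 different sites. In all, 4 of the 8 genes had a promoter peak in every library, and so had 9 of 18 other marker and housekeeping genes. With 5 kb allowed instead of 2 kb, 7 of the 8 genes had a peak in every library, CD2 and CD4 among them. The height of a peak is given as the number of reads at its summit, recovered from the authors' fold and p-value. Peaks began at 2 reads in the DMSO lists and at 3 reads in the AI-10-49 lists, whose background was higher, at 0.0965 and 0.108 reads per base against 0.0613 and 0.060. Heights of the same number of reads therefore stand for different multiples of the background in the 2 groups. Over the 29042 regions listed in all 4 libraries (shared regions), the median height was 8 and 7 reads in DMSO replicates 1 and 2. It was 9 and 10 reads in AI-10-49 replicates 1 and 2. As multiples of the background these medians were 130.5 and 116.7 in the controls and 93.3 and 92.9 after treatment.

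**Figure D1:**
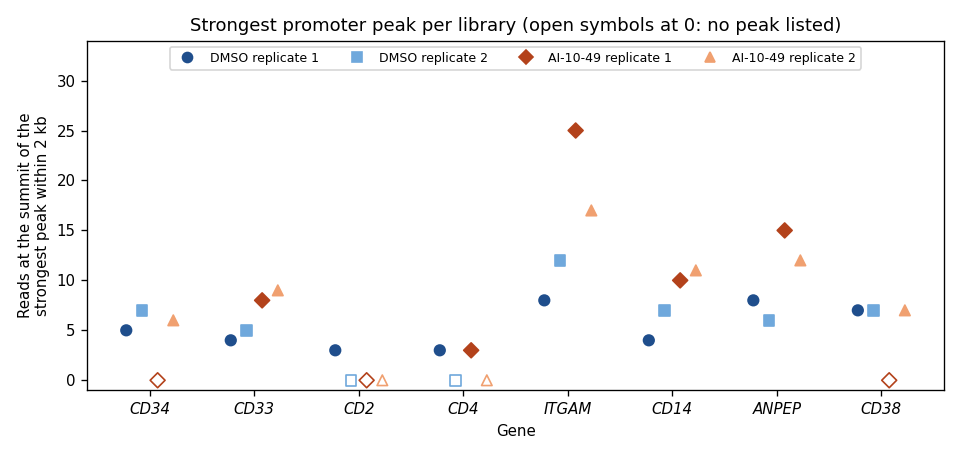
Reads at the summit of the strongest peak within 2 kb of each gene's approximate start, 1 symbol per library, with open symbols at 0 where no peak was listed. ITGAM reached 25 and 17 reads with AI-10-49, while CD2 and CD4 showed no promoter peak above 3 reads.

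The integrin gene ITGAM had the strongest promoter site of the 8 genes. The site, chr16:31271053-31271397 (hg19), was 345 bp wide and its summits in the 4 libraries lay within 20 bp of each other. It had 8 and 12 reads in DMSO replicates 1 and 2, and 25 and 17 reads in AI-10-49 replicates 1 and 2. Reads were thus higher in both treated libraries, as they were, by less, at the median shared region. As multiples of the library background the heights were 130.5 and 200.0 in the controls and 259.1 and 158.0 after treatment, and on this scale the groups overlapped. To compare libraries on a common set, sites were ranked within each library by −log10 p-value among the 29042 regions listed in all 4 libraries, with 100 as the strongest. The ITGAM promoter stood at percentiles 50 and 83.9 in the controls and 94.6 and 79.2 after treatment. The mean rank was higher by 20 points, but the libraries overlapped. The difference was 2.8 points without DMSO replicate 1, 11.3 without AI-10-49 replicate 1 and 34.1 without DMSO replicate 2.

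The CD33 promoter carried a lower site, chr19:51728205-51728395, with 4 and 5 reads in the controls and 8 and 9 after treatment. These are 65.3 and 83.3 times the background in the controls and 82.9 and 83.6 times after treatment. Its rank percentiles were 6.6 and 41.3 in the controls and 52.1 and 48.2 after treatment, so that both treated libraries lay above both controls. The difference of 26.2 points came to 8.8 points without DMSO replicate 1 and to 46.0 without DMSO replicate 2. At the aminopeptidase gene ANPEP, the site chr15:90358032-90358540 was the widest of the 3, with 509 bp. It had 8 and 6 reads in the controls and 15 and 12 after treatment, which is 130.5 and 100.0 times the background, then 155.4 and 111.5 times. Its percentiles were 43.8 and 24.4 in the controls and 74.3 and 52.9 after treatment, a difference of 29.5 points with no overlap of the groups, which was 18.8 without DMSO replicate 2 and 19.3 without AI-10-49 replicate 1.

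Higher ranks in both AI-10-49 libraries than in both DMSO libraries were seen at 19.6% of the 29042 regions of all 4 libraries, and lower ranks at 18.8%. The 3 promoters differed in the same direction in the mean, and 2 of them without overlap. They are few, and no test over sites was made, since sites are not replicates. Promoters outside the 8 genes were compared after these values had been seen. Of 18 genes of other lists, with approximate starts, 9 had a promoter site in all 4 libraries. The mean rank was higher with AI-10-49 at 5 of these 9, with a median difference of 2.1 points and a range from -34.3 at PTPRC to 29.0 at ITGA2B. B2M, which encodes the light chain of class I molecules, had a mean rank 25.8 points higher, so differences of this size were not limited to the myeloid markers. The ranks of CD33, ITGAM and ANPEP differed in the same direction when taken by reads or by fold, and with each library left out.

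**Figure D2:**
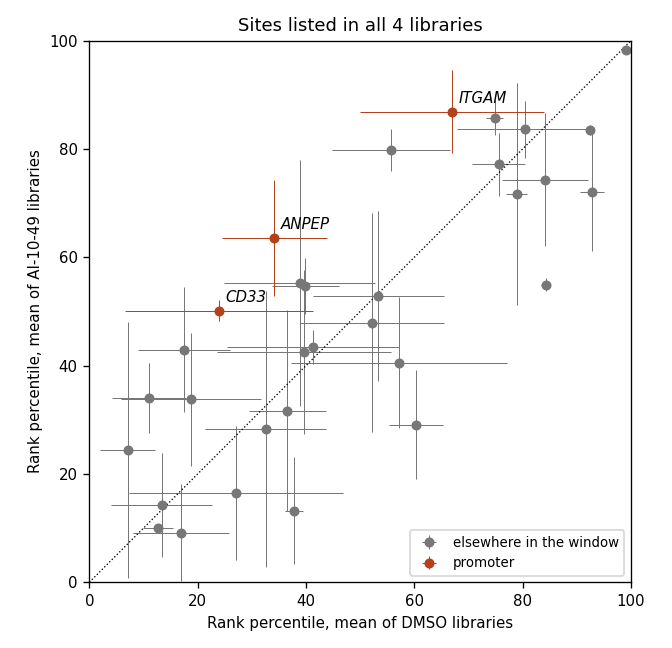
Rank percentile of the 32 sites of the 8 windows that all libraries listed, as the mean of the DMSO (horizontal) and AI-10-49 (vertical) libraries. Bars run from the lower to the higher of the 2 replicates, the dotted line marks equal ranks, and the 3 promoter sites lie above it.

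The promoter of CD14 had 2 sites that were listed in different libraries, and DMSO replicate 2 listed both. At the approximate start, which is given to the nearest 1 kb, chr5:140012943-140013038 had 4 reads in each DMSO library and was listed in neither AI-10-49 library. A second site 1.77 kb upstream, chr5:140014715-140014834, was not listed in DMSO replicate 1 and had 7 reads in DMSO replicate 2 and 10 and 11 reads with AI-10-49. The upstream site thus had 116.7 times the background in the single DMSO library that listed it, and 103.6 and 102.2 times in the treated ones. When 1 kb was allowed instead of 2 kb, CD14 had a promoter peak in both control libraries and in neither treated library. The 4 reads at the approximate start are 65.3 and 66.7 times the background of the DMSO libraries.

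At CD34 the promoter was listed less evenly. The site chr1:208084510-208084645 had 5 and 7 reads in the DMSO libraries, at 81.6 and 116.7 times the background, and no peak with AI-10-49. A neighbouring site on the upstream side, chr1:208085361-208085452, had 3 reads in DMSO replicate 2 and 6 in AI-10-49 replicate 2. AI-10-49 replicate 1 listed no promoter peak for CD34 at all. The CD38 site, chr4:15780642-15780788, lay 0.72 kb downstream and had 7 reads in each library that listed it, which were all but AI-10-49 replicate 1. These 7 reads are 114.2 and 116.7 times the background in the controls and 65.1 times in AI-10-49 replicate 2. The median shared region stood at 130.5 and 116.7 times in the controls and at 92.9 times in AI-10-49 replicate 2.

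CD2 and CD4 had no promoter site in more than a single library. The only CD2 promoter peak had 3 reads, in DMSO replicate 1, 1.52 kb downstream of the start. CD4 had a peak of 3 reads in DMSO replicate 1 and another of 3 reads in AI-10-49 replicate 1, at places that did not overlap. With at least 5 reads asked for in every list, these 2 genes had no promoter peak in any library, and 2 genes, ITGAM and ANPEP, had one in all of them. The absence of a peak is a limit of detection and does not show closed chromatin. The promoter of ACTB, the gene of a cytoskeletal actin that nearly every cell uses, had 12 and 11 reads with AI-10-49 and no peak in either DMSO list, and the GAPDH promoter was listed in 3 of 4 libraries.

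Other lineage markers were used to check the label of a myeloid leukaemia line. All 3 leukocyte genes (CD44, SPN and PTPRC) had a promoter peak in every library, as did CD68, a lysosomal protein of macrophages. Of 5 T and NK cell genes, only CD8A had one in every library, with 12 and 9 reads in the controls and 12 and 11 after treatment. CD3E and NCAM1 were listed with 2 reads in a single DMSO library each, and CD5 and CD7 in none. Of 2 B cell genes, CD79A had a promoter peak in all libraries and MS4A1 in none. ITGA2B of platelets was listed in all 4 libraries, while EPCAM of epithelial cells was listed in none. ITGAX, the integrin chain CD11c of myeloid cells, had a promoter peak in 2 of 4 libraries, with 5 and 6 reads. TFRC, the transferrin receptor, and B2M, both used by most cells, had one in every library. The positions of these genes are approximate too, and a peak near a start can belong to a neighbouring gene.

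With promoter sites counted, every one of the 8 windows held at least 1 site of all 4 libraries, and at ANPEP this was the promoter site alone. Of the 84 regions, 32 (38.1%) were listed in all 4 libraries, against 28.1% of all regions of the genome, and 30 (35.7%) in a single library, against 43.9%. Regions of all 4 libraries had 3 to 45 reads with a median of 8.5, and those of a single library 2 to 6 with a median of 3. DMSO replicate 1 alone held 17 of the 30, and the other libraries 3 to 6. Member windows were richer in peaks than the genome at large, with 5.88 to 8.12 peaks per window in the 4 libraries, against 2.04 to 2.81 per 100 kb tile with any peak. The windows are centred on genes and the tiles are not, and the part of this in the difference was not tested.

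**Figure D3:**
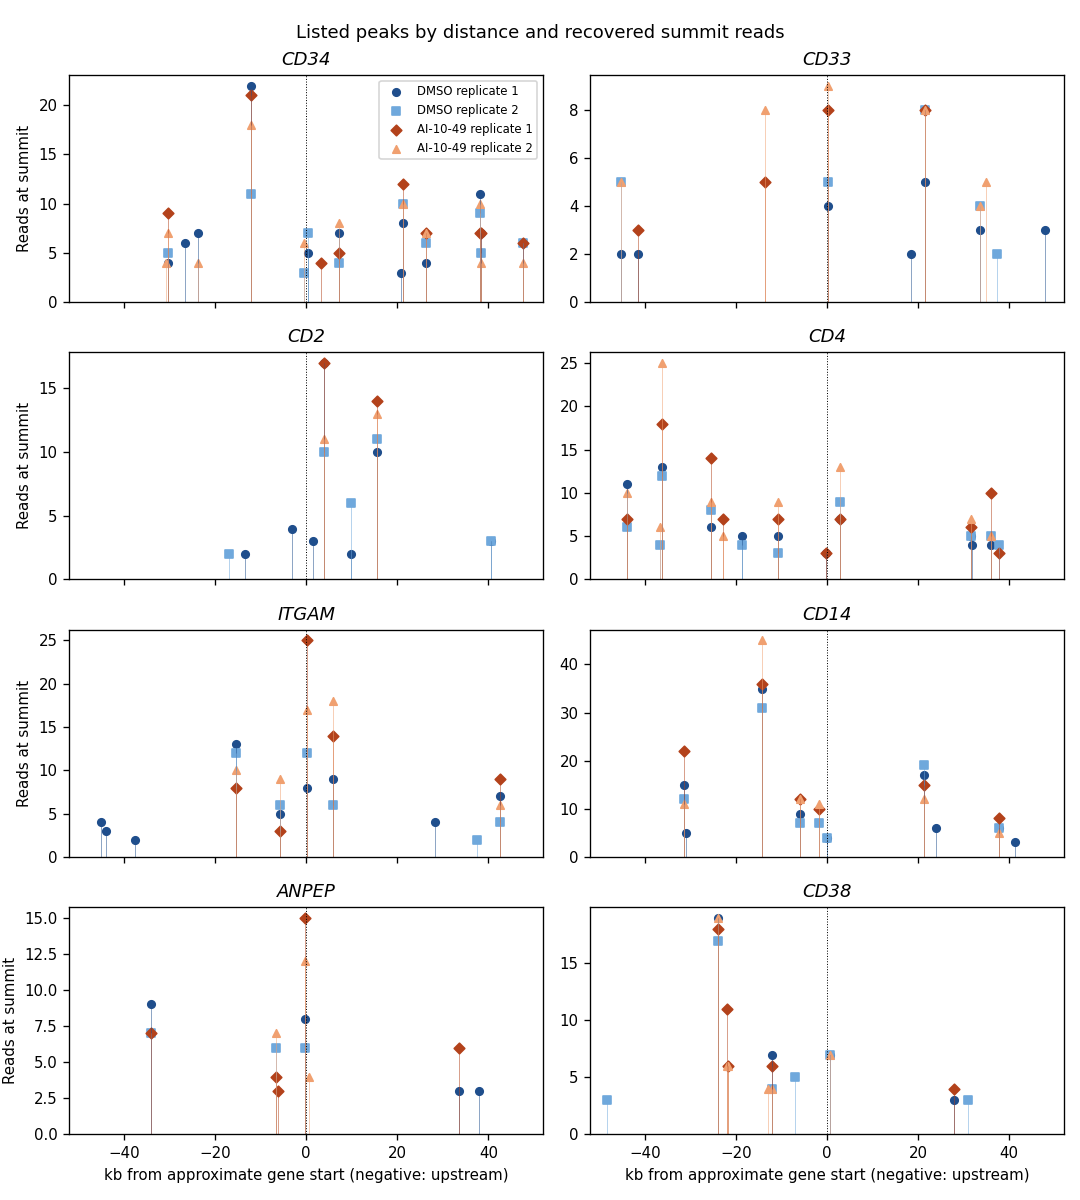
Peaks of the 8 windows by distance from the approximate gene start in the direction of the gene (kb, negative upstream) and by reads at the summit, with 1 symbol per library. Symbols of equal height cover each other, and scales differ between panels: the tallest site, with 31 to 45 reads, lies 14.31 kb upstream of CD14.

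CD34 had the most regions, 15, of which 8 were listed in every library, and no other protein-coding gene lies within 50 kb of its start in the RefSeq table. Its strongest site was not the promoter but chr1:208096982-208097279, 12.13 kb upstream. There the reads were 22 and 11 in the controls and 21 and 18 after treatment, and the rank percentiles were 93.1 and 67.8 against 88.9 and 78.3, which overlap. Downstream by 21.16 kb, chr1:208063688-208063992 had 8 and 10 reads in the controls and 12 and 10 after treatment. The gene spans 30.2 kb in the RefSeq table, so this site would lie inside it if the length is the same in hg19. The sites at 38.08 and 47.55 kb downstream, named next, would then lie beyond its end. The site chr1:208046728-208047114 ranked at 65.3 and 55.3 in the controls and at 19.0 and 39.1 after treatment, a difference of -31.2 points, with 11 and 9 reads against 7 and 10. Another, chr1:208037381-208037513, also ranked lower in both treated libraries, with 6 and 6 reads against 6 and 4. The site 30.25 kb upstream ranked higher in both, with 4 and 5 reads in the controls and 9 and 7 after treatment. The window of CD34 thus held sites that differed in either direction.

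CD2 had 2 strong sites in every library although its promoter was almost without peaks. The first, chr1:117300850-117301041, lay 3.95 kb downstream of the start and had 17 and 10 reads in the controls and 17 and 11 after treatment. The second, chr1:117312412-117312627, lay 15.52 kb downstream and had 10 and 11 reads in the controls and 14 and 13 after treatment. The gene spans 14.8 kb in the RefSeq table of GRCh38.p14, so the second site would lie just past its end if the length is the same in hg19. A control region beyond the end of the human gene is known to open this locus in T cells, and whether the site falls in it was not examined. Ranks of both sites overlapped between groups. They were the only peaks around CD2 in the treated libraries, each of which listed 2, against 7 and 5 in the controls (on average 2.0 against 2.5 with at least 5 reads in every list). With every list cut to the length of the shortest, the means were 2.0 after treatment and 4.0 in the controls. With the strongest 24465 peaks of each list they were 2.0 and 2.5. The peaks seen with DMSO alone were low: chr1:117306868-117306964 had 2 and 6 reads, chr1:117337476-117337560 had 3 and 3, and 4 further regions of a single library had 2 to 4.

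The CD4 window held 14 regions, of which 7 were listed in every library, among 5 neighbouring genes of the RefSeq table (MLF2, PTMS, LAG3, GPR162 and P3H3), and sites were not assigned to genes. The nearest shared site, chr12:6901844-6902055, lay 2.95 kb downstream of the CD4 start and had 7 and 9 reads in the controls and 7 and 13 after treatment. The strongest, chr12:6862705-6863005, lay 36.15 kb upstream, with 13 and 12 reads against 18 and 25, and it ranked higher in both treated libraries (73.3 and 76.4 against 82.5 and 89.0). The site 10.74 kb upstream also ranked higher in both, with 5 and 3 reads against 7 and 9. One region of the window was listed with DMSO only, chr12:6880385-6880503 (5 and 4 reads), and another with AI-10-49 only, chr12:6876018-6876114 (7 and 5 reads).

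At ITGAM, 4 shared sites accompanied the promoter, and 2 of them differed in opposite directions. The site chr16:31276629-31276945, 5.79 kb downstream, had 9 and 6 reads in the controls and 14 and 18 after treatment, and its percentiles were 66.5 and 44.8 against 75.9 and 83.6. The site chr16:31255396-31255663, 15.47 kb upstream, had 13 and 12 reads in the controls and 8 and 10 after treatment. Its percentiles were 83.4 and 85.1 in the controls and 53.7 and 56.1 after treatment, a difference of -29.4 points with close replicates. As multiples of the background this upstream site had 212.1 and 200.0 in the controls and 82.9 and 92.9 after treatment. It was thus lower in both treated libraries by reads, by multiples of the background and by rank. The sites 5.8 kb upstream and 42.58 kb downstream overlapped in rank between groups.

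The CD14 window, which also holds all or part of 7 other protein-coding genes, among them TMCO6, NDUFA2, IK, WDR55 and HARS1, had the strongest site of the 8 windows. This was chr5:140027148-140027473, 14.31 kb upstream of CD14, with 35 and 31 reads in the controls and 36 and 45 after treatment. Its summits agreed within 10 bp and it stood at percentiles of 98.0 to 99.2 in all libraries. The site chr5:139991669-139991902, 21.21 kb downstream, ranked lower after AI-10-49, at 90.6 and 95.0 in the controls and 82.8 and 61.2 after treatment, with 17 and 19 reads against 15 and 12. The site 6.0 kb upstream ranked higher in both treated libraries, with 9 and 7 reads against 12 and 12. A further strong site, chr5:140044228-140044514, had 15 and 12 reads against 22 and 11, and its ranks overlapped.

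Around CD33, ANPEP and CD38 few sites were shared by all libraries. CD33 had a single shared site beside its promoter, chr19:51749414-51749676, with 5 and 8 reads in the controls and 8 and 8 after treatment. A site 13.71 kb upstream of CD33, chr19:51714205-51714381, was listed with AI-10-49 only, with 5 and 8 reads. ANPEP had no shared site other than its promoter. RefSeq gives the gene 2 starts, 8.2 kb apart in GRCh38.p14, of which the upstream one is known to serve myeloid cells and the downstream one epithelial cells. No library listed a peak between 0.55 and 33.49 kb downstream of the upstream start, a stretch that would contain the downstream start if the spacing is the same in hg19. A site 34.03 kb upstream, chr15:90391973-90392088, had 9 and 7 reads in the controls, 7 in AI-10-49 replicate 1 and no peak in AI-10-49 replicate 2.

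CD38 had its strongest site at chr4:15756037-15756205, 23.88 kb upstream, with 19 and 17 reads in the controls and 18 and 19 after treatment. Its percentiles were 92.2 and 92.8 in the controls and 84.5 and 82.6 after treatment. Reads therefore hardly differed while ranks were lower in both treated libraries. The median shared region had 8 and 7 reads in the controls and 9 and 10 after treatment. Close to it lay 2 sites listed with AI-10-49 only, chr4:15757929-15758174 with 11 and 6 reads and chr4:15758298-15758402 with 6 and 6. A site 11.99 kb upstream, chr4:15767935-15768089, was shared, with 7 and 4 reads against 6 and 4. BST1, a relative of CD38 with the same kind of enzyme activity, is the only neighbour within 50 kb in the RefSeq table.

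Over the 8 windows, peaks were fewer after AI-10-49 in the deposited lists, as they were over the genome. Controls had 59.0 ± 8.49 of them on average (SD, n = 2) and treated cells 47.5 ± 0.71 (SD, n = 2), which is a change of -19.5%, against -22.8% for all peaks. It was -10.4% without DMSO replicate 1 and -26.9% without DMSO replicate 2. The groups did not overlap, and the two-sided exact permutation p was 0.333, the smallest that 2 against 2 libraries allow. With at least 5 reads in every list treated cells had 3 peaks more on average (39.5 against 36.5). As 5 reads are a lower multiple of the background in the AI-10-49 lists, this cut is laxer there. With at least 60 times the background in every list, treated cells had fewer peaks, 33.5 against 46.0, a change of -27.2%. The median shared region stood at 93.3 and 92.9 times with AI-10-49 against 130.5 and 116.7 times with DMSO. Measured against these medians, the cut at 60 times is stricter in the AI-10-49 lists. With every list cut to the length of the shortest, treated cells had 2 peaks more on average. With the strongest 24465 peaks of each list, treated cells had 0.5 more. The direction thus depended on the cut. Libraries of cells in bulk cannot tell a site open in fewer cells from a site less open in each cell.

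**Figure D4:**
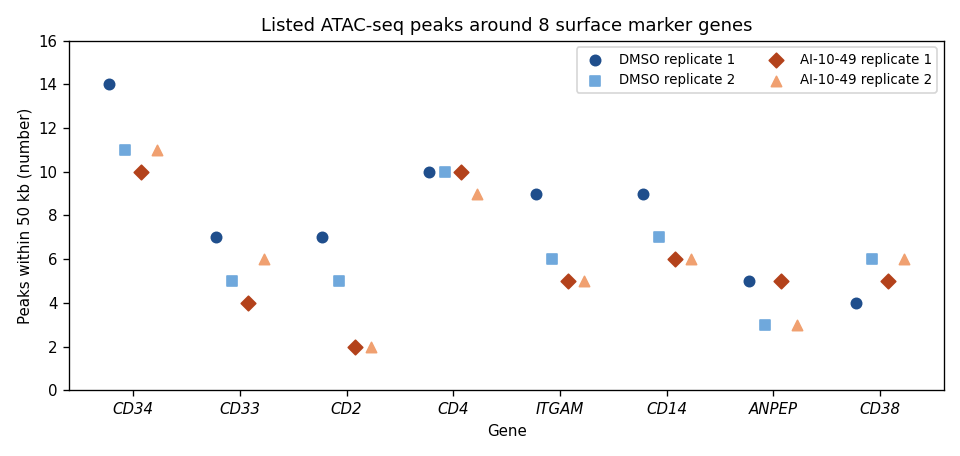
Number of listed peaks within 50 kb of each gene's approximate start, 1 symbol per library. CD2 had 7 and 5 peaks in the controls and 2 and 2 after treatment, and CD4 had 10 and 10 against 10 and 9, where with at least 5 reads in every list the means were 2.5 against 2.0 for CD2 and 6.5 against 8.5 for CD4. With at least 60 times the background the means were 3.0 against 2.0 for CD2 and 9.0 against 7.0 for CD4.

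By gene, the groups did not overlap at 3 of 8, all lower with AI-10-49, where 21.3% of 100 kb tiles of the genome were lower and 1.96% higher in the same way. The tiles held fewer peaks, 2.04 to 2.81 on average against 5.88 to 8.12 per member window, and low counts tie more easily. The shares are therefore not like for like, and tiles as crowded as the windows were not compared. The 3 genes were CD2 with 7 and 5 peaks against 2 and 2, ITGAM with 9 and 6 against 5 and 5, and CD14 with 9 and 7 against 6 and 6. The exact permutation p of each was 0.333, or 0.888 after Benjamini-Hochberg adjustment over the 8 genes, and no gene could pass the threshold in this design. CD34 had 14 and 11 peaks in the controls and 10 and 11 after treatment. CD33 had 7 and 5 against 4 and 6, CD4 10 and 10 against 10 and 9, ANPEP 5 and 3 against 5 and 3, and CD38 4 and 6 against 5 and 6. Peaks of 2 reads, which only the DMSO lists hold, made up 3 of the 12 DMSO peaks of CD2 and 4 of the 12 of CD33. Without DMSO replicate 2, or without AI-10-49 replicate 2, 5 genes were lower with AI-10-49, as fewer libraries then have to agree. With at least 5 reads in every list, or a minimum −log10 q-value of 5, no gene was lower in both treated libraries. With at least 60 times the background in every list, 5 genes were lower in both, CD34, CD2, CD4, ITGAM and CD14. With every list cut to the length of the shortest, 1 gene was lower in both, CD2, with means of 4.0 in controls against 2.0. With the strongest 24465 peaks of each list it was CD34, with 5.0 against 4.0. At 5 reads the mean numbers were 2.5 in controls against 2.0 in treated cells for CD2, 4.5 against 4.5 for ITGAM and 6.5 against 6.0 for CD14, while CD4 had 6.5 against 8.5. At 60 times the background the means were 3.0 against 2.0 for CD2, 6.0 against 4.0 for ITGAM and 7.5 against 5.5 for CD14. There CD4 had 9.0 against 7.0 and CD34 11.5 against 7.0.

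By site, 5 member regions were listed with DMSO only and 4 with AI-10-49 only. The first are 12.2% of the 41 regions in both DMSO libraries, against 11.8% over the genome, and the second 10.5% of the 38 in both AI-10-49 libraries, against 5.36%. The share of DMSO-only sites lies near that of the genome. Without DMSO replicate 1, DMSO replicate 2 or AI-10-49 replicate 2, which relaxes the rule, there were 11, 23 and 8 DMSO-only sites. Without AI-10-49 replicate 1 or 2 there were 8 and 7 AI-10-49-only sites. Under a minimum −log10 q-value of 5 the numbers were 0 and 2. The AI-10-49-only share rests on 4 sites at CD33, CD4 and CD38, of which 2 are neighbours at CD38. Among the 32 shared sites, 7 ranked higher and 6 lower in both AI-10-49 libraries (21.9% and 18.8%), near the 19.6% and 18.8% of all shared regions, and the median difference was 0.2 points.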

How the data were processed

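ATAC-seq peak lists of 4 ME-1 libraries, 2 with DMSO and 2 with AI-10-49, were analysed on hg19, with groups and replicate numbers from the sample titles. The submitters' processing notes list MACS2 2.1.0, Bowtie2, cutadapt 1.3, deepTools and Picard 1.96 with no role, and caller settings are not given in the sources used here. The deposited files, 1 per library, give per peak an integer score (not used), a fold enrichment over local background and −log10 values of p and q (p-value and q-value). Fold and p-value are the authors' own and were used to rank, filter and describe peaks within a list.

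Only chromosomes 1 to 22 and X were used, and rows with equal coordinates were collapsed to the strongest summit. Reads at a summit were recovered as the whole number that gives the deposited −log10 p-value under a Poisson model (tolerance 0.001), which succeeded for 99.99% of peaks in each library. The step was tested on 20000 simulated peaks (99.99% exact). These were simulated with the same formulas, so the test checks the arithmetic and not whether the deposited values follow the model. The background is the most frequent level in a library. As depth, these values stand in for library totals, which are not given in the sources used here.

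Regions were formed at 1 bp overlap. Peak counts were tested by exact permutation, two-sided and Benjamini-Hochberg adjusted over 8 genes (threshold 0.05). Python 3.11.15, numpy 2.4.6, pandas 2.3.3 and scipy 1.17.1 were used. Members, lists and motifs were chosen with earlier results of these data known. Named were all 8 genes, their promoter sites, up to 3 further shared sites each, sites listed in 1 group only, and some further sites, such as those with non-overlapping ranks, chosen after their values were seen. Gene starts, marker positions and the strand of CD4 came from general knowledge, and no annotation or sequence of hg19 was used. Alternatives concerned list filters, window, promoter width, overlap rule, ranking, pairing and leaving out libraries. Some marker genes of the fixed lists are not reported here.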

Additional observations from a re-analysis of the deposited data

How the results depend on the processing

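The deposited lists differ in their lowest reads and background, which limits every count of peaks. The difference of -11.5 peaks over the 8 windows reversed to 2 under a minimum −log10 q-value of 5, 2 with the strongest peaks up to the shortest list, 0.5 with the upper part of these, 24465 peaks, and 3 with at least 5 reads, and kept its direction in the others, at -5.5 to -17.5 without 1 library. Genes with fewer peaks in both AI-10-49 libraries (3 of 8) were 0, 1, 1 and 0 in these 4 settings, 5 at 60 times the background, and 3 to 5 when 1 library was left out (5 without DMSO replicate 2 or AI-10-49 replicate 2). The pairing by replicate number gave the same difference of -11.5 with a paired exact permutation p of 0.5, the smallest possible for 2 pairs, and deviations of same-numbered replicates had r = -0.003 over 29037 regions.

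By gene, CD33 reversed to 1.5 (q-value), 1.5 and 1.5 (strongest peaks), 2 (5 reads), 1 (3 reads, chosen after the data were seen) and 0.5 (25 kb). CD4 reversed to 2, 0.5, 0.5 and 2 in the first 4 settings, CD14 to 0.5 (q-value) and 1 (24465 peaks), CD34 to 1.5 (shortest list), and CD38 to -0.5 (24465 peaks, 60 times the background, and without DMSO replicate 1).

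Genes with a promoter peak in every library, 4, were 2 (q-value), 1 (24465 peaks), 2 (5 reads), 7 (5 kb) and 4 to 6 without 1 library. Genes with none, 0, were 2, 1 and 2 (q-value, shortest list and 24465 peaks), 2 (5 reads), 2 (60 times), 1 (1 kb) and 0 to 1 without 1 library. Sites of all libraries, 32, were 20 (q-value), 13 (24465 peaks), 21 (5 reads), 19 (25 kb) and 62 (100 kb). DMSO-only sites, 5, were 0 (q-value), 2 and 1 (shortest list and 24465 peaks), 1 (5 reads), 8 (50% reciprocal overlap) and 7 to 23 without 1 library. AI-10-49-only sites, 4, were 2 (q-value), 2 (24465 peaks), 0 (60 times), 9 (100 kb) and 4 to 8 without 1 library. Stricter lists and leaving out a library change these counts by construction.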
